A study of Arabidopsis thaliana with 6 samples.

Results

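Expansins and xyloglucan endotransglucosylase/hydrolases (XTHs) are the 2 gene groups described here, in roots of wild type (WT, Col) *Arabidopsis thaliana* and of *CEPDL2ox* plants, in which the cauliflower mosaic virus 35S promoter drives *CEPDL2*. The genes were chosen by name. Every gene whose symbol was EXPA, EXPB, EXLA, EXLB or XTH followed by a number was taken, and 2 EXPA genes were left out by the rule and were not analysed here. This gave 60 of the 33557 genes in each table, of which 18 were *EXPA*, 5 *EXPB*, 3 *EXLA*, 1 *EXLB* and 33 *XTH* genes.

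The libraries came from roots of 10-day-old plants grown on 10 mM nitrate, 3 from WT and 3 from *CEPDL2ox* plants. Both groups had the same age, medium and tissue, and no other allele or agent is named for either. The 35S promoter is active in most cells and is not limited to the shoot phloem, from which *CEPDL2*, a small CC-type glutaredoxin-like polypeptide, normally moves to the root. The methods of the study describe its replicates, for all experiments together, as independent biological ones. Which transgenic line was sequenced and how many plants went into a library are not given in the sources used here.

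Plant cells enlarge when the wall between cellulose microfibrils gives way under turgor. α-expansins (EXPA) loosen this network at acid pH without cutting it, β-expansins (EXPB) are the related group best known from grasses, and the expansin-like proteins (EXLA, EXLB) share the same fold but have no loosening activity known with certainty. XTHs cut xyloglucan, the main hemicellulose of the primary wall in *Arabidopsis*, and rejoin the cut end to another chain, and a few of them hydrolyse it instead. In roots both groups are most studied in the elongation zone and in root hairs.

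The overexpressed gene was read at the level its labels imply. *CEPDL2* stood at 3.27, 5.78 and 9.45 FPKM (fragment counts normalised to transcript length and library size) in WT and at 7948, 8838 and 8337 FPKM in *CEPDL2ox* roots. All 10 root marker genes were read in all 6 libraries. WT replicate 1 stood apart. In it 9 of 12 shoot marker genes were at their highest, with a summed level of 18.6 FPKM against 1.84 to 6.67 FPKM in the other libraries, where 6 to 11 of the 12 were at 0, and 17 of 18 light-harvesting genes were at their highest, with a sum of 2369 FPKM against 249.8 to 577.7 FPKM. Read numbers were not in the tables, but 12 low expansin and XTH genes sat on whole multiples of a common step, taken as 1 read and matched within 0.05 of a read. Relative to WT replicate 1, the FPKM worth of that read was 0.942 and 1.005 in WT replicates 2 and 3. In *CEPDL2ox* replicates 1, 2 and 3 it was 1.071, 1.074 and 1.151. By this estimate the libraries differed modestly in depth, and every *CEPDL2ox* library was shallower than every WT library.

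As a whole the wall genes overlapped between the groups in summed level and in share of all FPKM. The 60 genes summed to 1893 ± 54.1 FPKM (SD, n = 3) in WT and 1951 ± 128 FPKM (n = 3) in *CEPDL2ox* roots. Their share of all FPKM was 0.180%, 0.182% and 0.185% in WT and 0.170%, 0.167% and 0.193% in *CEPDL2ox* roots. By share, *CEPDL2ox* replicates 1 and 2 lay under every WT library and replicate 3 above. The *XTH* sum was 981 ± 32.8 FPKM in WT and 963 ± 36.8 FPKM in *CEPDL2ox* roots, and the libraries of the groups overlapped. The *EXPA* sum was 484 ± 39.5 FPKM against 552 ± 61.0 FPKM, and the *EXPB* sum 296 ± 36.1 FPKM against 259 ± 21.4 FPKM, again with overlap. Only the *EXLA* sum separated the groups, at 31.1, 39.5 and 36.9 FPKM in WT and 60.6, 71.1 and 113 FPKM in *CEPDL2ox* roots. With 3 libraries against 3, an exact permutation test of any single sum cannot go below p = 0.1, so these sums are given as levels.

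**Figure D1:**
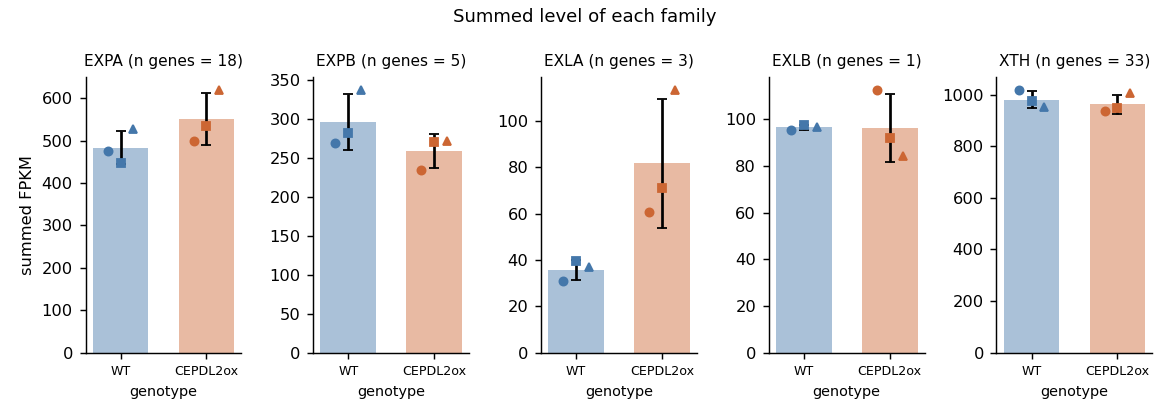
Summed FPKM of the genes of each family in each library (vertical axis, from 0, scaled per family), by genotype; bars are the mean of 3 libraries, error bars the SD, and points the libraries (circle, square and triangle for replicates 1, 2 and 3). The *EXLA* sums of 60.6 to 113 FPKM in *CEPDL2ox* roots lie above the 31.1 to 39.5 FPKM of WT, while the *XTH* sums overlap.

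Levels within the families were uneven. Of the 60 genes, 34 had a mean of 10 FPKM or more over the 6 libraries and 5 a mean of 100 FPKM or more, and 4 (*EXPB4*, *EXPB6*, *XTH1* and *XTH3*) were listed at 0 throughout. A further 9 were above 0 but under the mean of 1 FPKM needed for testing, namely *EXPA2*, *EXPA5*, *EXPA16*, *EXPA21*, *XTH2*, *XTH11*, *XTH25*, *XTH26* and *XTH29*. The remaining 47 genes (14 *EXPA*, 3 *EXPB*, 3 *EXLA*, 1 *EXLB* and 26 *XTH*) were tested among 19597 genes with limma on log2(FPKM + 1), a scale that understates the change of low genes.

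Of the tested genes, 3 (*EXLA3*, *EXPB2* and *EXPA1*) were called higher in *CEPDL2ox* roots and 1, *XTH7*, was called lower, where a call needs a Benjamini-Hochberg adjusted p under 0.05 and an absolute log2 fold change above 1. Among all 19597 genes, 1.16% were called higher and 0.424% lower. Without the fold threshold, *EXLA1* and *XTH14* were also higher, giving 5 genes higher against a background of 3.71% and 1 lower against 2%. The median log2 fold change was -0.07 over the 47 genes and -0.03 over all genes tested, and 26 of the 47 were below 0, where 54.5% of all genes were. The median over the 47 was 0 without WT replicate 1 and ranged from -0.09 to -0.01 without any other single library. The groups did not overlap for 7 of the 47 genes on the higher side (13.8% of all genes) and for 10 on the lower side (16.1% of all genes).

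**Figure D2:**
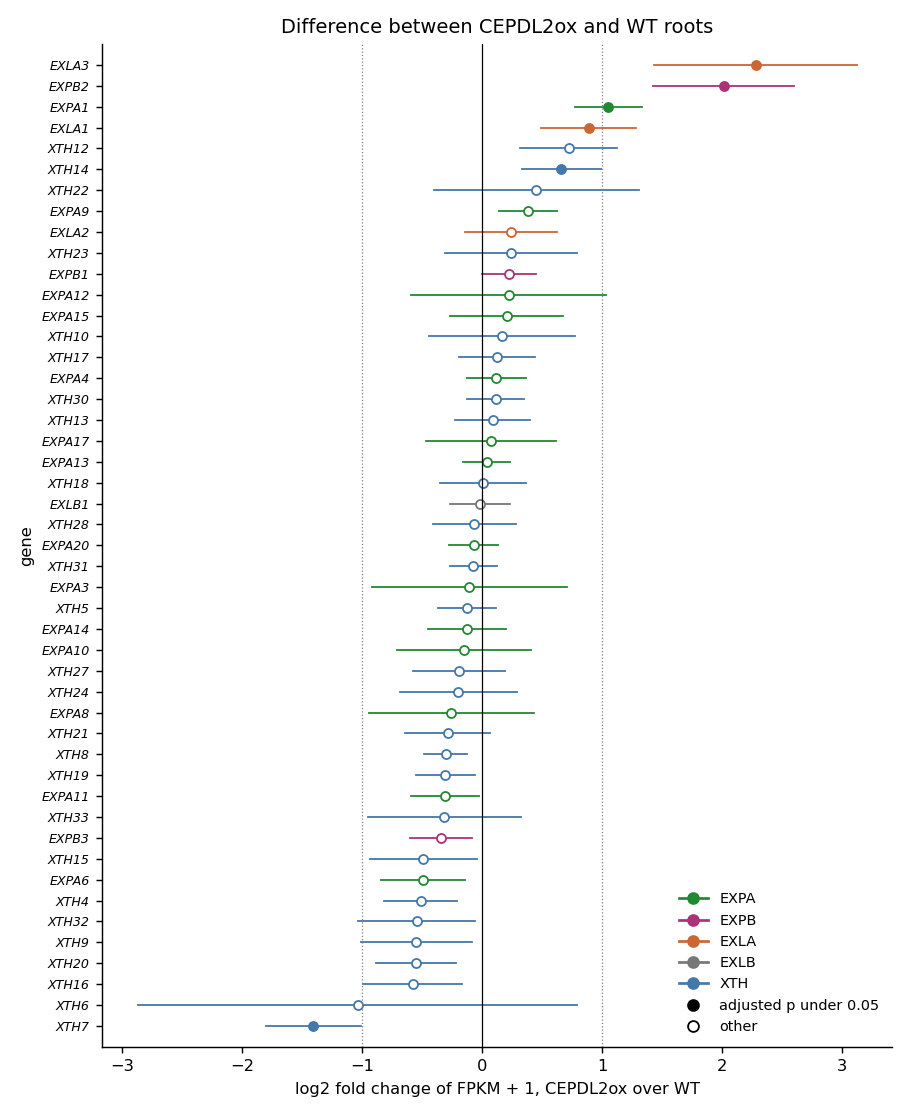
Log2 fold change of FPKM + 1, *CEPDL2ox* over WT (horizontal axis), for the 47 tested genes in order of size, coloured by family; lines are 95% confidence intervals from limma, filled points have an adjusted p under 0.05, and dotted lines mark a log2 fold change of -1 and 1. *EXLA3* (2.28) and *EXPB2* (2.01) lie at the upper end and *XTH7* (-1.41) at the lower.

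*EXLA3* (AT3G45960, chromosome 3, 16892756 to 16893900 on TAIR10) had the largest fitted change of the 47 tested genes. It measured 3.50, 5.36 and 7.92 FPKM in the WT libraries and 21.1, 23.7 and 52.4 FPKM in the *CEPDL2ox* libraries. Every *CEPDL2ox* library was above every WT library, and *CEPDL2ox* replicate 3 was more than double the other 2. The ratio of means was 5.79, and the log2 fold change was 2.28 (SE 0.36, limma adjusted p = 0.014). The call was lost without WT replicate 1 (log2 fold change 2.03, limma adjusted p = 0.058) and without WT replicate 2 (2.28, adjusted p = 0.058).

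*EXLA1* (AT3G45970, chromosome 3, 16896166 to 16898013) is the next gene on the chromosome, in the same orientation. Its levels were 15.2, 20.6 and 17.7 FPKM in WT and 26.9, 34.1 and 41.5 FPKM in *CEPDL2ox* roots, with no overlap. The ratio of means was 1.91 and the log2 fold change 0.89 (SE 0.17, limma adjusted p = 0.027), so it passed the test but not the fold threshold. Of the 6 fits that leave out 1 library, only the one without *CEPDL2ox* replicate 1 kept an adjusted p under 0.05, and limma's adjusted p ranged from 0.035 to 0.096. The span the tables give to *EXLA1* runs into the histone gene AT3G45980, and since the library kit keeps no strand, reads in the overlap cannot be assigned by strand.

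*EXLA2* (AT4G38400) lies on another chromosome. It measured 12.3, 13.6 and 11.3 FPKM in WT and 12.6, 13.2 and 19.4 FPKM in *CEPDL2ox* roots. The groups overlapped, with only *CEPDL2ox* replicate 3 above the WT range, and the log2 fold change was 0.24 (95% interval -0.14 to 0.63, limma adjusted p = 0.42). *CEPDL2ox* replicate 3 was the highest library for all 3 *EXLA* genes. *EXLB1* (AT4G17030), the one gene of its family, was at 95.5, 97.6 and 96.7 FPKM in WT and 112, 91.9 and 84.4 FPKM in *CEPDL2ox* roots, so the WT values sat inside the range of the others (log2 fold change -0.02, 95% interval -0.26 to 0.23, limma adjusted p = 0.95).

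*EXLA1* and *EXLA3* are alike in sequence, which matters because a read of 75 bases that fits both cannot be placed with certainty. The stretch of 75 coding bases in which they are most alike is shown here, with the bases that differ in capitals (RefSeq, TAIR10.1, both on the plus strand).
*EXLA1*, chr3:16896242-16896316, 5′ to 3′: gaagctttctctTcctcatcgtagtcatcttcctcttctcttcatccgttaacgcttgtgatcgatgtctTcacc
*EXLA3*, chr3:16892830-16892904, 5′ to 3′: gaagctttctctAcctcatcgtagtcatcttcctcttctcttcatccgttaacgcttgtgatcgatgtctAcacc
The stretches differ at 2 positions. Of all 75-base windows of the *EXLA3* transcript, 2.47% matched *EXLA1* with at most 2 mismatches and none without a mismatch, so most reads of either gene had a single best place. No window of *EXLA2* matched another gene at that limit.

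The bases upstream of *EXLA3* and *EXLA1* are also given, since both genes moved in the same direction, with the motif TGACG marked. TGACG is the core sequence bound by TGA bZIP factors, which are known partners of CC-type glutaredoxins. Those of *EXLA2* are not shown. Both windows hold the 250 bases before the annotated gene start (RefSeq, TAIR10.1), with TGACG, or CGTCA where it reads on the other strand, in capitals.
*EXLA3*, chr3:16892452-16892701, 5′ to 3′: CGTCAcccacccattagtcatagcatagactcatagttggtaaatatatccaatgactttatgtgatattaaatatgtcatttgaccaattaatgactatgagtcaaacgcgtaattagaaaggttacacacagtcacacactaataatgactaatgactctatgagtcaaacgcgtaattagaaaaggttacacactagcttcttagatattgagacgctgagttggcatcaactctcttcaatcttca
*EXLA1*, chr3:16895916-16896165, 5′ to 3′: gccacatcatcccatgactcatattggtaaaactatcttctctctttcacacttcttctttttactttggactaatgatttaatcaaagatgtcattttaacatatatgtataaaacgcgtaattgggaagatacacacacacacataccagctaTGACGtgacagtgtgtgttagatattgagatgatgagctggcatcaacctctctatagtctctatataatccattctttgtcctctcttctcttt
TGACG was present on either strand in the windows of *EXLA1*, *EXLA2*, *EXLA3* and *EXLB1*, and in 9 of the 60 genes in all (15%), compared with 18.6% of the 27443 promoters of the genome. In *EXLA3* the match lies at the far edge of the window, at -250 from the TAIR10.1 start (16892702). A window of 250 bases before the TAIR10 start given above (16892756) would not reach it. Neither *EXPB2*, *EXPA1*, *XTH7* nor *XTH14* had it in this window. TGTCTC, the core auxin response element, was found on either strand in 5 of the 60 windows (8.33%) and in 10.9% of all promoters, and none of the genes with an adjusted p under 0.05 had it. A match is a run of letters and says nothing about binding.

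*EXPB2* (AT1G65680, chromosome 1, 24427266 to 24428399) was almost silent in WT. It measured 0.545, 2.05 and 1.09 FPKM in WT and 8.16, 7.02 and 7.83 FPKM in *CEPDL2ox* roots. These values stand for 2, 8 and 4 reads in WT and 28, 24 and 25 reads in *CEPDL2ox* roots, so the WT spread was a spread of a few reads and the *CEPDL2ox* libraries were close to each other. Scaled for depth, the summed reads gave a ratio of 6.15 (exact 95% interval 3.45 to 11.8, counting error only). The log2 fold change was 2.01 (SE 0.25, limma adjusted p = 0.0054), and it remained past both thresholds without any one of the 6 libraries, at 1.78 to 2.27.

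The gene beside it, *EXPB6*, was listed at 0 in all 6 libraries. *EXPB3* (AT4G28250) was by far the most abundant β-expansin, at 221, 233 and 278 FPKM in WT and 169.8, 202 and 204 FPKM in *CEPDL2ox* roots. All 3 *CEPDL2ox* values lay under the WT range, but the log2 fold change of -0.34 did not pass the test (SE 0.11, limma adjusted p = 0.12). *EXPB1* (AT2G20750) was at 47.1, 47.6 and 57.5 FPKM in WT and 56.0, 62.2 and 59.4 FPKM in *CEPDL2ox* roots. Its groups overlapped (log2 fold change 0.22, 95% interval -0.003 to 0.45, limma adjusted p = 0.22).

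Because the 3 β-expansins stand at such different levels, the sum of the family follows *EXPB3*. The 250 bases before *EXPB2* are shown as those of the β-expansin that rose.
*EXPB2*, chr1:24427016-24427265, 5′ to 3′: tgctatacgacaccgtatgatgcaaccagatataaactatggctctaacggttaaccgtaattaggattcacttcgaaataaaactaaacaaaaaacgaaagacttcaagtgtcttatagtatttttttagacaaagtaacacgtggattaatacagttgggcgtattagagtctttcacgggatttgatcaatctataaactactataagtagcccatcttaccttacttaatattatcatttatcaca

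*EXPA1* (AT1G69530, chromosome 1, 26141836 to 26143500) is the α-expansin known from guard cells and from the first divisions of lateral root founder cells. It measured 25.1, 19.9 and 25.7 FPKM in WT and 47.9, 46.2 and 55.5 FPKM in *CEPDL2ox* roots. The lowest *CEPDL2ox* library was well above the highest WT library, and spread within each group was small. The ratio of means was 2.11 and the log2 fold change 1.05 (SE 0.12, limma adjusted p = 0.0036), the lowest adjusted p of the 47 genes. It stayed under 0.05 in all 6 fits without 1 library, but the change lies near the fold threshold and dropped under it without WT replicate 2 (0.94) and without *CEPDL2ox* replicate 3 (0.98).
*EXPA1*, chr1:26141476-26141725, 5′ to 3′: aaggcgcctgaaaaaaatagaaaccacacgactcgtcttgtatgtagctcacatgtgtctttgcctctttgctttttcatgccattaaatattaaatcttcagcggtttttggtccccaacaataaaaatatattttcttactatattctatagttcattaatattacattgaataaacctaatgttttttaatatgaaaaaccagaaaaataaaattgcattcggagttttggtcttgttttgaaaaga
This window of 250 bases is shown for the α-expansin that rose, and it holds neither motif.

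The most abundant α-expansins were other genes. *EXPA9* (AT5G02260) measured 117, 108 and 129 FPKM in WT and 137, 152 and 172 FPKM in *CEPDL2ox* roots. Its groups did not overlap, yet the log2 fold change of 0.38 missed the threshold (SE 0.10, limma adjusted p = 0.078). *EXPA4* (AT2G39700) was at 93.4, 107 and 118 FPKM in WT and 105, 125 and 116 FPKM in *CEPDL2ox* roots. *EXPA15* (AT2G03090) was at 60.6, 55.2 and 87.8 FPKM in WT and 67.1, 68.7 and 98.5 FPKM in *CEPDL2ox* roots. Both overlapped between the groups, with log2 fold changes of 0.12 (95% interval -0.12 to 0.36, limma adjusted p = 0.54) and 0.21 (95% interval -0.26 to 0.68, adjusted p = 0.58).

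Of the 14 α-expansins tested, 7 had a log2 fold change above 0 and 7 below, with a median of -0.02. *EXPA14* and *EXPA17*, which act in lateral root emergence, stood at means of 50.9 and 21.2 FPKM in WT and 46.9 and 22.7 FPKM in *CEPDL2ox* roots, with overlapping groups. On the lower side, *EXPA6* measured 21.2, 17.7 and 18.8 FPKM in WT and 10.8, 16.4 and 13.5 FPKM in *CEPDL2ox* roots without overlap, and did not pass (log2 fold change -0.49, SE 0.15, limma adjusted p = 0.11). *EXPA20* was near level at means of 16.2 and 15.4 FPKM, but 79.0% of its 75-base windows also matched the overlapping gene AT4G38215, so its value is uncertain.

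*XTH7* (AT4G37800, chromosome 4, 17775474 to 17777397) was the one gene of the 60 called lower. It measured 56.6, 46.0 and 35.1 FPKM in WT and 15.3, 18.6 and 15.4 FPKM in *CEPDL2ox* roots. The WT libraries were spread, but the lowest of them was still nearly double the highest *CEPDL2ox* library. The mean in WT was 2.79 times that in *CEPDL2ox* roots, and the log2 fold change was -1.41 (SE 0.17, limma adjusted p = 0.0047). WT replicate 1, the library with the high shoot markers, held the highest value. Without it, the log2 fold change was -1.24 (limma adjusted p = 0.016), and the gene remained called in each of the 6 fits without 1 library. As in any bulk root sample, fewer cells that express the gene and less of its RNA per cell cannot be told apart.
*XTH7*, chr4:17777446-17777695, minus strand, 5′ to 3′: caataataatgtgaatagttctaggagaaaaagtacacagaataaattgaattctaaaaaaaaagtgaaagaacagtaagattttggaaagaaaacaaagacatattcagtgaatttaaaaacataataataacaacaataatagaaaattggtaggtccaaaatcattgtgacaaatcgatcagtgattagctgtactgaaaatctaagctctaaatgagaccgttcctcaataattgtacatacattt
The 250 bases before the start of *XTH7* are shown as those of the gene that fell, and they hold neither motif.

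*XTH14* (AT4G25820, chromosome 4, 13130297 to 13131788), a root XTH studied in root hairs, had the highest mean of all the XTHs over the 6 libraries. It measured 150.3, 125 and 159.5 FPKM in WT and 255, 187 and 249.7 FPKM in *CEPDL2ox* roots. The groups did not overlap, and *CEPDL2ox* replicate 2 was the lowest of its group. The ratio of means was 1.59 and the log2 fold change 0.66 (SE 0.14, limma adjusted p = 0.038). This call was not stable, since it held in only 1 of the 6 fits without 1 library, that without *CEPDL2ox* replicate 2, and limma's adjusted p rose to as much as 0.14.

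*XTH26* (AT4G28850), known from root hair cells, was too low for the test but separated the groups. It measured 0.189, 0.178 and 0.190 FPKM in WT and 1.82, 0.608 and 1.09 FPKM in *CEPDL2ox* roots. In reads this was 1 in each WT library and 9, 3 and 5 in the *CEPDL2ox* libraries. It is described because its groups did not overlap, its ratio of means was over 2 and a group mean reached 1 FPKM. That last point was met only in *CEPDL2ox* roots (mean 1.17 FPKM, against 0.185 FPKM in WT). These values are therefore given without a test of their own. The 5 root hair markers *RHD6*, *RSL4*, *COBL9*, *PRP3* and *LRX1* were all above 0 in log2 fold change. Among all genes tested, 54.5% were below 0. Only 1 of the 5 passed the test (*RHD6*, 0.73, limma adjusted p = 0.034), against a background of 3.71% higher by adjusted p. Their summed level was 153 to 164 FPKM in WT and 173 to 239 FPKM in *CEPDL2ox* roots, lowest of that group in replicate 2. The sum follows *PRP3*, which alone was at 86.0 to 89.5 FPKM in WT and 90.7 to 133 FPKM in *CEPDL2ox* roots. *COBL9* and *LRX1* overlapped between the groups. All 3 xylem markers and 7 of the 10 root markers were above 0 as well, and none of them passed. The part of root hair cells in the levels of *XTH14*, *XTH26* and *EXPB2* was not tested.

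*XTH31* (AT3G44990), one of the few XTHs with hydrolase activity, was the second most abundant XTH over the 6 libraries. In WT alone its mean of 179 FPKM was above the 145 FPKM of *XTH14*. *XTH31* measured 184, 165 and 188 FPKM in WT and 164, 185 and 163 FPKM in *CEPDL2ox* roots. Its groups overlapped, and the log2 fold change was -0.07 (95% interval -0.27 to 0.12, limma adjusted p = 0.65). *XTH9* (AT4G03210) measured 86.9, 73.6 and 51.2 FPKM in WT and 48.1, 54.7 and 39.3 FPKM in *CEPDL2ox* roots. WT replicate 1 was its highest library, the groups overlapped, and the log2 fold change of -0.55 (SE 0.20, limma adjusted p = 0.15) was -0.38 without that library.

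**Figure D3:**
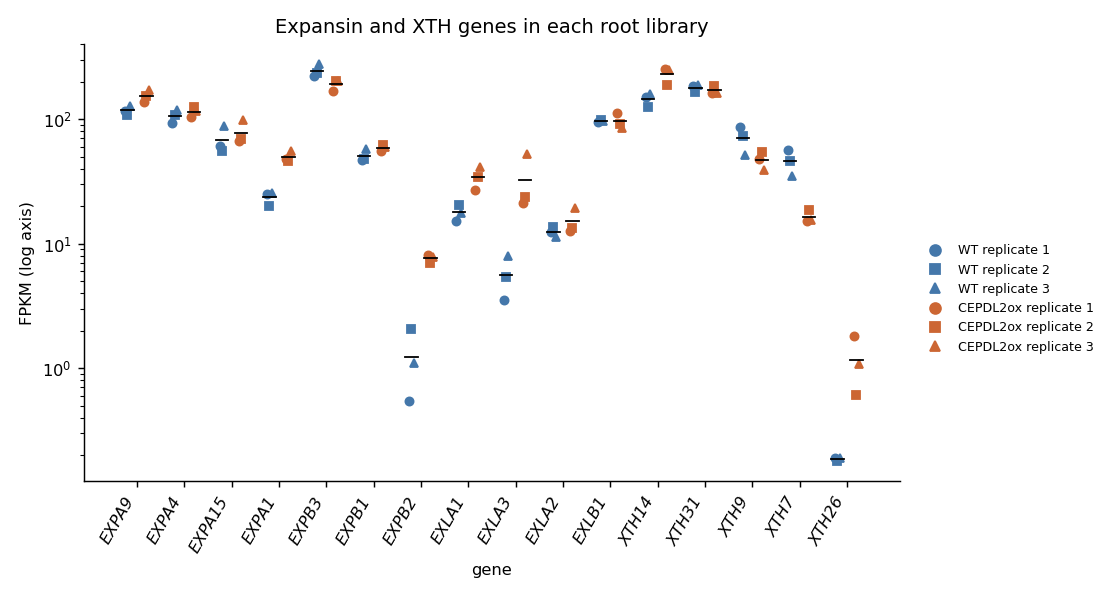
FPKM (log axis) of the 16 genes described in full, in each library; blue marks WT and orange *CEPDL2ox*, circle, square and triangle mark replicates 1, 2 and 3, and black lines are group means. *EXPB2*, *EXLA3* and *XTH26* show the widest gaps upward and *XTH7* the widest downward, while *EXLB1* and *XTH31* overlap.

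Of the 26 XTHs tested, 17 had a log2 fold change below 0 and 9 above, where 54.5% of all genes tested were below 0. The median was -0.19 against -0.03 for all genes tested, and without WT replicate 1 it was -0.11, with 16 of the 26 below 0. For 2 of the 26, *XTH12* and *XTH14*, the *CEPDL2ox* libraries were all above the WT libraries (13.8% of all genes). In 7 of the 26 the 3 *CEPDL2ox* libraries were all under the 3 WT libraries (16.1% of all genes), and 6 of these 7 did not pass the test. The 6 were *XTH4*, *XTH8*, *XTH16*, *XTH19*, *XTH20* and *XTH32*. *XTH4*, known from secondary growth of the stem, measured 62.7, 55.8 and 46.6 FPKM in WT and 33.2, 40.5 and 40.9 FPKM in *CEPDL2ox* roots (log2 fold change -0.51, SE 0.13, limma adjusted p = 0.064). *XTH8* measured 63.3, 67.2 and 62.2 FPKM in WT and 48.6, 52.8 and 54.5 FPKM in *CEPDL2ox* roots, a small difference with little spread (log2 fold change -0.30, SE 0.08, limma adjusted p = 0.066). The adjusted p of *XTH20*, a root XTH, was 0.068 by limma, and its 99 reads in WT stood against 56 in *CEPDL2ox* roots. Scaled for depth, these reads gave a ratio of 0.63 (exact 95% interval 0.45 to 0.89, counting error only). *XTH4*, *XTH8* and *XTH20* lay just short of the threshold. *XTH4*, *XTH8* and *EXPA6* passed it when every library was scaled to the same summed FPKM, a scaling that also lowers the median of all genes to -0.11.

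Several XTH genes lie next to each other. Of the 60 genes, 14 have another of the 60 as the next gene. *XTH23* lies directly before *XTH14* and was at means of 23.7 and 29.0 FPKM in WT and *CEPDL2ox* roots with overlap, while *XTH14* rose. *XTH18* and *XTH19*, both root XTHs, lie side by side. *XTH18* had near equal means of 44.6 and 45.5 FPKM, and *XTH19* was at 44.9, 46.1 and 40.5 FPKM in WT and 30.9, 35.9 and 39.3 FPKM in *CEPDL2ox* roots (log2 fold change -0.31, limma adjusted p = 0.14). These 2 share part of their sequence with each other and with *XTH17*. In any pair of the 3, at most 9.97% of the windows of a gene matched with at most 2 mismatches. None matched without a mismatch, so most reads of each gene had a single best place. Whether neighbours differed in their change was not tested.

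The cluster on chromosome 5 holds *XTH12*, *XTH13*, *XTH25* and the touch-induced *XTH22* within 23300321 to 23308282. *XTH12* measured 12.4, 14.4 and 15.8 FPKM in WT and 26.3, 18.1 and 28.7 FPKM in *CEPDL2ox* roots, without overlap. With a log2 fold change of 0.72 (SE 0.17) it just missed the threshold, at a limma adjusted p of 0.056. *XTH13* was at 8.27, 9.99 and 8.06 FPKM in WT and 8.31, 9.16 and 10.7 FPKM in *CEPDL2ox* roots, which overlapped. *XTH22* was at 5.07, 6.24 and 5.68 FPKM in WT and 3.97, 8.58 and 14.8 FPKM in *CEPDL2ox* roots, so the *CEPDL2ox* libraries spread to both sides of WT.

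**Figure D4:**
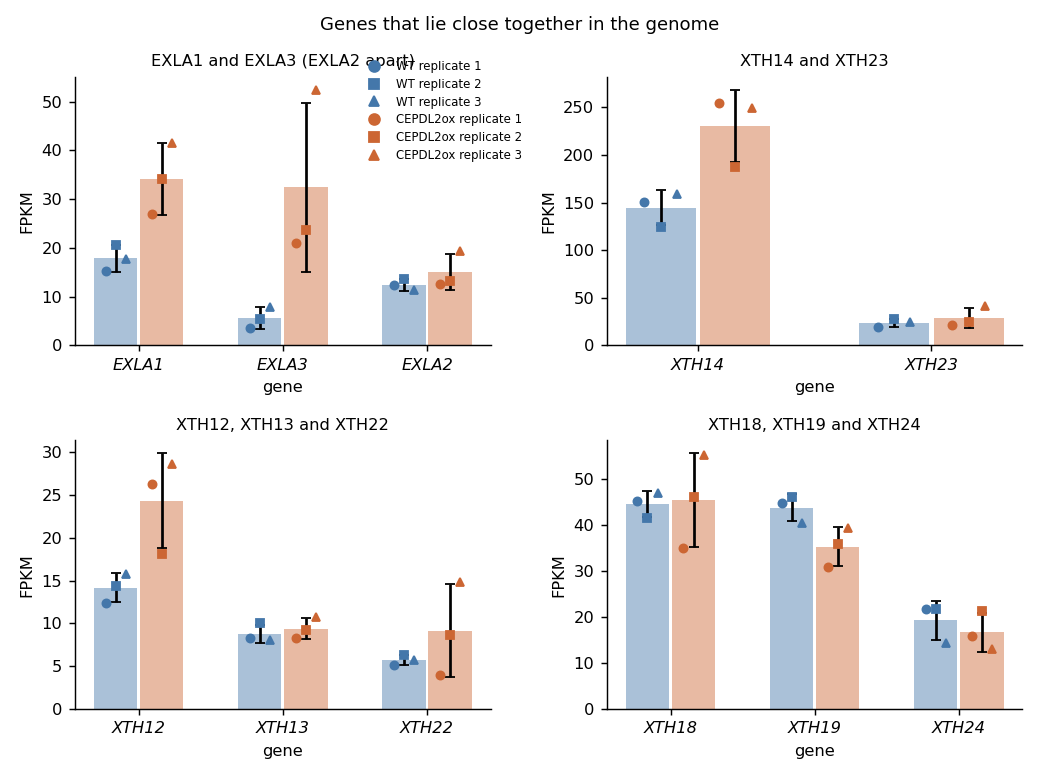
FPKM (vertical axis, from 0) of *EXLA* and *XTH* genes that lie close together, by gene; bars are means of 3 libraries, error bars the SD, points the libraries (circle, square and triangle for replicates 1, 2 and 3), with WT in blue and *CEPDL2ox* in orange. *EXLA1* and *EXLA3* both separate the groups, and so do *XTH14* and *XTH12*, while *XTH23*, *XTH13*, *XTH22*, *XTH18* and *XTH24* overlap.

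A few of the genes were read mainly in WT replicate 1. *XTH6* measured 7.58 FPKM in WT replicate 1 and was listed at 0 in the other 5 libraries, so its log2 fold change of -1.03 (SE 0.79, limma adjusted p = 0.47) rests on that library alone. *EXPA5* measured 3.42 FPKM in WT replicate 1, which was 22 reads, and 0, 0, 0.166, 0 and 0.358 FPKM in the others, which were 3 reads together. In that library the shoot markers *YAB1* and *YAB3*, transcription factors of the leaf's lower side, were at 3.24 and 3.79 FPKM against at most 0.435 and 0.170 FPKM in the others. Of the 47 tested genes, 13 were at their highest in WT replicate 1, compared with 16.5% of all genes tested, and these included *XTH7*, *XTH9*, *XTH4*, *XTH16*, *XTH32*, *EXPA6* and *EXPA11*. *CEPDL2ox* replicate 3 held the highest value of 14 others, and the share of all genes highest in that library was not counted. How far shoot RNA entered the WT levels of these genes was not tested.

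**Figure D5:**
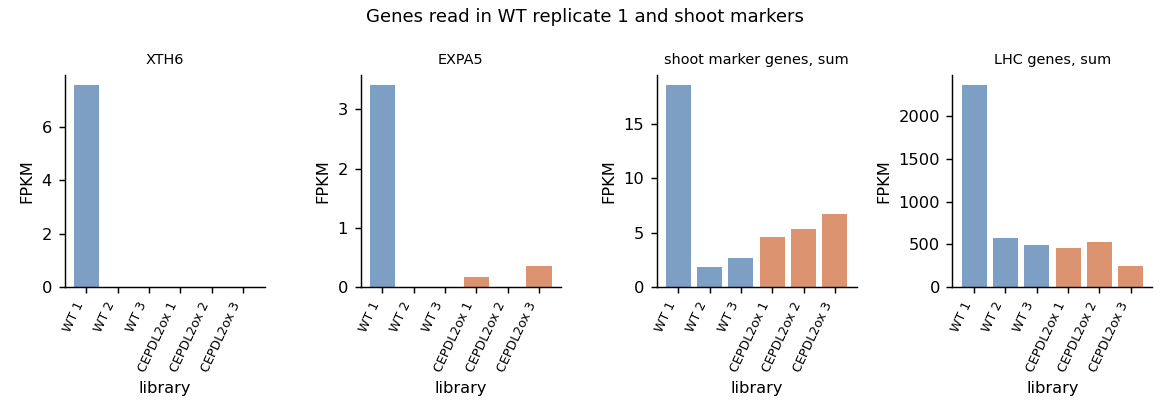
FPKM in each of the 6 libraries (vertical axes from 0) of *XTH6* and *EXPA5*, and summed FPKM of 12 shoot marker genes and of 18 light-harvesting (LHC) genes; blue bars are WT and orange bars *CEPDL2ox*. All 4 are highest in WT replicate 1, at 7.58, 3.42, 18.6 and 2369 FPKM.

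Genes that make or trim the polymers on which these proteins act were read alongside, against a background of 3.71% of all tested genes higher and 2% lower by adjusted p and 54.5% below 0. Of 8 tested genes of primary wall cellulose synthesis, 1 was lower and none higher, the median log2 fold change was -0.21 and all 8 were below 0. *CESA5*, a cellulose synthase subunit, measured 17.7, 19.3 and 18.0 FPKM in WT and 11.5, 11.4 and 14.5 FPKM in *CEPDL2ox* roots (log2 fold change -0.53, limma adjusted p = 0.041). None of the 3 secondary wall *CESA* genes passed. Of 13 xyloglucan synthesis genes, 1 was higher and none lower, with a median of 0.001. This was *CSLC12*, a synthase of the xyloglucan backbone, at 3.35, 2.50 and 4.21 FPKM in WT and 7.02, 6.14 and 6.42 FPKM in *CEPDL2ox* roots (log2 fold change 0.81, limma adjusted p = 0.041).

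Xyloglucan trimming enzymes, which remove side chain sugars in the wall, were lower in 2 of 3 cases. *XYL1*, the α-xylosidase, measured 55.5, 59.0 and 49.6 FPKM in WT and 35.5, 34.3 and 37.8 FPKM in *CEPDL2ox* roots. *BGAL10*, the β-galactosidase, measured 19.8, 25.3 and 21.5 FPKM in WT and 14.9, 14.5 and 15.7 FPKM in *CEPDL2ox* roots. Neither overlapped between the groups, with log2 fold changes of -0.59 (limma adjusted p = 0.011) and -0.53 (adjusted p = 0.035). The fucosidase gene *AXY8* was at means of 26.8 FPKM in WT and 27.7 FPKM in *CEPDL2ox* roots and overlapped. For *CESA5*, *CSLC12*, *XYL1*, *BGAL10* and *RHD6*, the adjusted p is given for the fit of all 6 libraries only. How it holds when a library is left out is not reported here.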

How the data were processed

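Total RNA from roots was made into TruSeq RNA v2 libraries, which keep no strand, and sequenced as single-end reads of 75 bases. Mapping to TAIR10 was done by the authors in a vendor pipeline, and the deposited tables hold 1 FPKM value per gene and library. Versions of the aligner are not given in the sources used here. Read totals were not in the files. Genes that averaged 1 FPKM or more in the 6 tables entered the test, made with limma 3.58.1 in R 4.3.3, on log2(FPKM + 1) with an intensity trend and no covariate, and p-values were adjusted by Benjamini-Hochberg over 19597 genes. Calls used the thresholds of the study, but with another test and on log2(FPKM + 1). The numbers of genes called higher and lower here differ from those the study reported, and the reason was not tested. The script was tested on simulated data. Genes given in full had an adjusted p under 0.05, or groups that did not overlap with a ratio of means over 2 or under 0.5 and a mean of at least 1 FPKM in a group, or were among the 3 most abundant of their family. Others named with values, and the reasons for showing their sequences, were chosen after the values were seen. The gene set, the marker and wall gene lists (matched by gene ID) and the tests were chosen with earlier results of these data known. Sequences came from RefSeq TAIR10.1, in which 32813 gene IDs and all 60 genes matched on the same chromosome. Replicate numbers did not pair the libraries, with correlations of same-numbered deviations from -0.03 to 0.02. Alternatives covered pseudocount, filter, scaling, trend, block and omission of each library.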

Additional observations from a re-analysis of the deposited data

How the results depend on the processing

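*EXPA1*, *EXPB2* and *XTH7* kept an adjusted p under 0.05 in limma under every alternative that tested them, and *EXPB2* was not tested at a mean of 5 FPKM. Fits that left out 1 library called 1 to 4 of the genes higher and 1 lower, and put 2 to 5 higher and 1 lower under adjusted p alone. *EXLA1*, *EXLA3* and *XTH14* each fell out of at least 2 of those 6 fits. Without the intensity trend, 3 genes were higher and 2 lower by adjusted p. Equal summed FPKM gave 4 lower (*EXPA6*, *XTH4*, *XTH7* and *XTH8*) by adjusted p, 190 genes called higher and 125 lower among all genes against 228 and 83, and a log2 fold change of 0.96 for *EXPA1*. *MT1A* held 8.77%, 8.49% and 9.03% of all FPKM in the WT libraries and 12.4%, 14.0% and 11.7% in the *CEPDL2ox* libraries. With *MT1A* and *CEPDL2* left out of the sum, a choice made after seeing the data, 1 gene was lower, as in the fit reported. *EXLB1* changed sign under median of ratios scaling (0.0034) and without *CEPDL2ox* replicate 2 or 3 (0.012 and 0.073), and ranged from -0.13 to 0.073 over the omissions of 1 library. With the replicate block, 3 genes were called higher and 1 lower, the same genes as without it, and 220 and 98 among all genes. The libraries sharing a number did not correlate best with each other in every case. The cause of these shifts was not tested. Low levels limit *XTH26*, *EXPA5* and *EXPB2*, which rest on few reads.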
